A study of Mus musculus with 20 samples.

Results

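The 10 genes described here are the glucocorticoid receptor gene Nr3c1, the mineralocorticoid receptor gene Nr3c2 and 8 genes of the stress response, Fkbp5, Sgk1, Tsc22d3, Zbtb16, Pdk4, Hif3a, Cdkn1a and Nfkbia. They were chosen by name, with earlier results of these data known, and make up 10 of the 32285 genes in the single-nucleus matrices. Their unique molecular identifiers (UMIs, which count captured transcripts) were summed per mouse within each class of hippocampal nuclei, and the classes of glia and neurons were compared between awake, isoflurane and ketamine mice and between genotypes.

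Corticosterone, the main glucocorticoid of rodents, enters cells and binds a pair of related nuclear receptors. The mineralocorticoid receptor has the higher affinity and is abundant in hippocampal principal neurons, whereas the glucocorticoid receptor is widely expressed, becomes occupied when the hormone rises, and then activates or represses genes through glucocorticoid response elements in DNA. In the brain, Fkbp5, Sgk1, Tsc22d3 and Zbtb16 are known to be induced by glucocorticoids, and many of these responses are strong in glia.

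The study asked how anesthesia affects the hippocampus of APP/PS1 mice, a transgenic model of familial Alzheimer's disease (fAD) carrying APPSwe and PS1ΔE9, here compared with wild-type (WT) littermates. Nuclei were isolated from snap-frozen hippocampus of 20 male mice aged 4.5 to 5.5 months. Both transgenes are placed under prion protein promoter sequences in this line. Awake mice (labelled Wake) comprised 6 WT-Awake (mice 1, 12, 13, 14, 19 and 29) and 3 fAD-Awake mice (2, 10 and 17). Isoflurane mice (labelled Isofluran, here GA for general anesthesia) received isoflurane at 5% and then 1.5% for 3 h and comprised 3 WT-GA (3, 16 and 18) and 4 fAD-GA mice (4, 11, 15 and 20). Ketamine mice (Ket) received 150 mg/kg ketamine with 12 mg/kg xylazine, were killed after 3 h of anesthesia, and comprised 2 WT-Ket (27 and 28) and 2 fAD-Ket mice (25 and 26). The ketamine groups therefore measure ketamine together with xylazine, at a single dose of each.

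The 20 libraries held 160777 nuclei, 4743 to 10877 per mouse, with a median of 1235 to 3169 UMIs per nucleus. Mice 1 to 4 stood apart with 0.939% to 1.78% mitochondrial UMIs, against 0.0353% to 0.336% in the others. All 4 ketamine mice carry numbers from 25 to 28, and only mouse 29 of that number range was awake, so ketamine and a preparation of those mice cannot be told apart. No pair of libraries shared more than 35 barcodes (mice 16 and 17), and the largest share was 0.407% of the smaller library (mice 14 and 28). Prnp, whose promoter drives the transgenes, averaged 207 ± 116 CPM in fAD (SD, n = 9) and 89.0 ± 45.9 CPM in WT (SD, n = 11; two-sided exact permutation p = 0.00633), but only 5 of 9 mice labelled fAD exceeded the highest WT mouse. That was mouse 14 (196 CPM), the other mice labelled WT being at 43.9 to 132 CPM, and fAD-Ket mouse 26 (191 CPM) exceeded all of them but mouse 14. Clusters were named "X-like" from marker genes, and 9.21% (WT-GA) to 25.3% (fAD-Ket) of nuclei stayed unnamed. All markers of the astrocyte (8 of 8), oligodendrocyte (8 of 8), oligodendrocyte precursor (OPC, 6 of 6), microglia (8 of 8), endothelial (8 of 8) and inhibitory neuron (9 of 9) lists peaked in their own class, as did 5 of 6 for dentate gyrus (DG) granule, 4 of 6 for CA1 and 3 of 6 for CA3 pyramidal neurons. Clustering made no correction between mice, and mice 1 to 4 mostly formed separate clusters that the classes pool. They made up 93.2% of a DG granule-like, 85.1% of an astrocyte-like and 96.0% of an oligodendrocyte-like cluster. For a CA1 pyramidal-like and a microglia-like cluster it was 92.2% and 87.5%. The largest DG granule-like, astrocyte-like, CA1 pyramidal-like and oligodendrocyte-like clusters held 0.741% to 1.92%. In the awake mice the astrocyte-like class held 72.9 to 177 CPM of summed microglial markers, and in GA 90.6 to 206 CPM and in ketamine 127 to 222 CPM, 1 of the 8 markers being at 0 in all 4 ketamine mice and none in all mice of the other states.

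The members lie on separate chromosomes apart from Fkbp5 and Cdkn1a. In GRCm38 coordinates, Nr3c2 spans chr8:76899442-77245012 on the plus strand, Fkbp5 chr17:28399094-28517527 on the minus strand, Sgk1 chr10:21882184-21999903 on the plus strand, Tsc22d3 chrX:140539528-140600659 on the minus strand, Zbtb16 chr9:48654297-48836222 on the minus strand and Hif3a chr7:17031507-17062427 on the minus strand. Because introns were counted, reads across these spans on the gene's strand can contribute, except where Fkbp5 overlaps 2 genes and Nr3c2 overlaps 1 gene of the same strand, whose reads cannot be told apart from theirs. Promoter windows of 250 bases before to 50 bases after a RefSeq start (GRCm38.p6) were at hand for 8 of the 10 members. They were searched on both strands for a palindromic glucocorticoid response element, written GNACANNNTGTNC, and for its core ACANNNTGT, which is contained in the longer motif. Among all 32851 mouse windows, 156 (0.475%) held the longer motif and 2249 (6.85%) the core. Of 16 windows of the members, only 1 of the 6 Sgk1 windows held the longer motif, with its core starting at −186 from the start, and another Sgk1 window held the core alone at −127. The Sgk1 window with the match is shown with the motif in capitals, beside the windows of Fkbp5 and Hif3a, the members with the highest fold changes described below, in which neither motif occurred.
Sgk1, chr10:21993640-21993939, plus strand: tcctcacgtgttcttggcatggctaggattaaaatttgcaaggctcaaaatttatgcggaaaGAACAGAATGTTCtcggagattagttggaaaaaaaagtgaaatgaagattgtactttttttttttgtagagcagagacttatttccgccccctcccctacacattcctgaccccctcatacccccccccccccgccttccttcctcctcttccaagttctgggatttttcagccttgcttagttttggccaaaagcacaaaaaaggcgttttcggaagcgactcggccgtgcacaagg
Fkbp5, chr17:28486100-28486399, minus strand: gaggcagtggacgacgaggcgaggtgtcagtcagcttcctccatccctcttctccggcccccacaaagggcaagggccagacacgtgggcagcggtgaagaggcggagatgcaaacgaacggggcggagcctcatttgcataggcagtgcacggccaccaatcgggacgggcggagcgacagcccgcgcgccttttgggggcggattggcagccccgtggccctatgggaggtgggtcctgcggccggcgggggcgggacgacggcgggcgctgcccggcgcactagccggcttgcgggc
Hif3a, chr7:17062378-17062677, minus strand: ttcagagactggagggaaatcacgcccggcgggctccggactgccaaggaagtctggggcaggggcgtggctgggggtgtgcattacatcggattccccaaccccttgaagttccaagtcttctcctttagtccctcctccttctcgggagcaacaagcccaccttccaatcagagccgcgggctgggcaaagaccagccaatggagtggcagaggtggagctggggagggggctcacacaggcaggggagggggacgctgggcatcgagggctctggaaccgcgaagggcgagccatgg
A match is a description of letters in these windows only, and elements farther away were not searched.

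With nuclei assigned by cluster, Nr3c2 was highest in the principal neuron classes and Nr3c1 in microglia-like nuclei. Levels between classes are given as CPM, the gene's UMIs scaled to a common total of the class's raw sum, mean ± SD over mice, and their order is a description without a test. Nr3c2 was at 841 ± 198 CPM in CA1 pyramidal-like (n = 20), 840 ± 243 CPM in DG granule-like (n = 20) and 729 ± 139 CPM in CA3 pyramidal-like nuclei (n = 20), which overlapped within their SD. It was lower in astrocyte-like nuclei (393 ± 88.7 CPM, n = 20), below CA3 pyramidal-like nuclei in 20 of 20 mice, and lowest in oligodendrocyte-like nuclei (128 ± 25.3 CPM, n = 20). Nr3c1 was instead at 341 ± 101 CPM in microglia-like (n = 19), 245 ± 73.2 CPM in endothelial-like (n = 10), 174 ± 44.8 CPM in oligodendrocyte-like (n = 20), 156 ± 37.7 CPM in astrocyte-like (n = 20) and 139 ± 33.8 CPM in OPC-like nuclei (n = 20). Among neurons Nr3c1 was at 97.6 ± 22.4 CPM in CA1, 79.4 ± 15.3 CPM in DG, 45.9 ± 10.6 CPM in inhibitory and 31.2 ± 7.52 CPM in CA3 classes (each n = 20), with CA1 above DG and DG above the inhibitory class in 20 of 20 mice. Neighbours in this order from microglia-like to OPC-like nuclei overlapped within their SD. The Nr3c2 levels of glia depended on how nuclei were assigned. Gating each nucleus by its markers in place of clustering gave 348 CPM in oligodendrocyte-like, 236 CPM in OPC-like and 520 CPM in microglia-like nuclei. The same gating gave 173 CPM for Nr3c1 in microglia-like nuclei, which is not above the 174 CPM of oligodendrocyte-like nuclei under clustering.

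**Figure D1:**
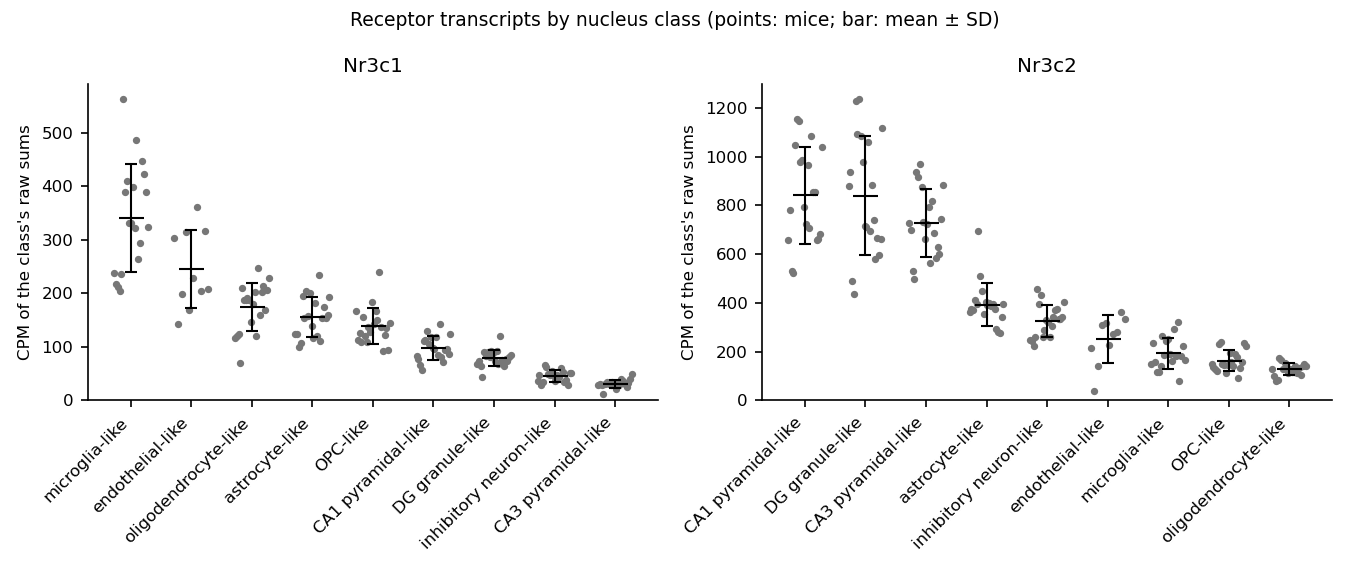
CPM of the raw class sums (y axis) of Nr3c1 (left) and Nr3c2 (right) in each class of nuclei (x axis, in order of the mean), with a point for each mouse and bars for the mean ± SD. With nuclei assigned by cluster, Nr3c1 was highest in microglia-like nuclei (341 CPM) and lowest in CA3 pyramidal-like nuclei (31.2 CPM). Nr3c2 was at 729 to 841 CPM in the 3 excitatory classes and at 128 CPM in oligodendrocyte-like nuclei.

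The target genes differed in the class where they were highest. Fkbp5, a co-chaperone that lowers the receptor's affinity for hormone, was highest in microglia-like nuclei (877 ± 564 CPM, n = 19), above oligodendrocyte-like nuclei (172 ± 120 CPM, n = 20) in 19 of 19 mice. Sgk1, a kinase that regulates ion channels and transporters, was at 318 ± 173 CPM in oligodendrocyte-like, 244 ± 75.1 CPM in OPC-like and 221 ± 30.7 CPM in CA3 pyramidal-like nuclei, and CA3 exceeded CA1 pyramidal-like nuclei (110 ± 19.6 CPM) in 20 of 20 mice. Relative to the oligodendrocyte-like level, CA3 pyramidal-like Sgk1 was at a median of 96.2% in awake and 56.5% in GA mice. For OPC-like Sgk1 these medians were 88.5% and 95.1%. Tsc22d3, which encodes the glucocorticoid-induced leucine zipper protein, was at 268 ± 151 CPM in astrocyte-like, 202 ± 64.3 CPM in oligodendrocyte-like and 107 ± 78.0 CPM in microglia-like nuclei, and at or under 14.3 CPM on average in OPC-like nuclei and every neuronal class. The order of the first pair differed between states, the oligodendrocyte-like level of Tsc22d3 being a median of 133% of the astrocyte-like level in awake and 46.1% in GA mice. Hif3a, a hypoxia-inducible factor subunit, was at 342 ± 172 CPM in astrocyte-like nuclei, above oligodendrocyte-like nuclei (74.8 ± 63.2 CPM) in 20 of 20 mice, and averaged 2.85 to 4.92 CPM in the 4 neuronal classes. Zbtb16, a zinc finger transcription factor, was at 554 ± 386 CPM in oligodendrocyte-like nuclei and present in all classes, with CA3 pyramidal-like nuclei at 122 ± 30.5 CPM. In awake mice Zbtb16 in DG granule-like nuclei was at a median of 128% of the oligodendrocyte-like level, and in GA mice at 31.5%. Nfkbia, the inhibitor of NF-kB, was at 827 ± 593 CPM in endothelial-like nuclei, above astrocyte-like nuclei (74.3 ± 27.7 CPM) in 10 of 10 mice. Cdkn1a, the cyclin-dependent kinase inhibitor p21, was at 292 ± 407 CPM in endothelial-like nuclei and at or under 9.90 CPM on average elsewhere. Pdk4, which limits pyruvate oxidation, was at 20.3 ± 6.62 CPM in astrocyte-like and 12.7 ± 6.91 CPM in oligodendrocyte-like nuclei. The oligodendrocyte-like level of Pdk4 was a median of 84.0% of the astrocyte-like level in awake and 35.5% in GA mice.

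Genes with the most similar patterns over the 48 class-by-group means, among 10803 genes, were taken as a description, since the means share libraries and depth. For Nr3c1 these were Ddx5 (Pearson r = 0.93), Vrk2 (0.92) and Nipbl (0.91), and for Nr3c2 they were Pigk (0.93), Prkag2 (0.93) and Celf2 (0.92). For Fkbp5 they included Gm22146 (0.91) and Nsd1 (0.85), of which Gm22146 is annotated within the Fkbp5 locus on the other strand. For Sgk1 they were Zdhhc14 (0.82), Nav1 (0.82) and Fmn1 (0.80).

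The first comparison asked what 3 h of isoflurane did to these genes, with the genotypes averaged. In astrocyte-like nuclei Fkbp5, Hif3a and Tsc22d3 rose and Nr3c1 fell. Hif3a also rose in oligodendrocyte-like, OPC-like and inhibitory neuron-like nuclei, Cdkn1a rose in oligodendrocyte-like nuclei, Sgk1 fell in inhibitory neuron-like nuclei and Nr3c2 fell in DG granule-like nuclei. Of 65 tests of a member in a class, 10 passed an adjusted p of 0.05 in edgeR (7 higher, 3 lower), 27 had an unadjusted p under 0.05, and DESeq2 called 12. Among all genes the share with such an unadjusted p in edgeR ran from 382 of 3829 (microglia-like) to 2614 of 12605 (astrocyte-like). Leaving out single mice gave 5 to 12 calls, the lowest of 5 without mouse 17, an awake fAD mouse. Number runs were set here as mice 1 to 4, 10 to 13, 14 to 17, 18 to 20 and 25 to 29, and the labels do not divide mice 10 to 20. A block for runs of consecutive mouse numbers gave 15, the calls it added being Nr3c1 (−0.40, adjusted p = 0.0150), Nr3c2 (−0.39, 0.0125), Sgk1 (−0.34, 0.0220) and Zbtb16 (−0.39, 0.00629) in CA1 pyramidal-like, Nr3c1 in DG granule-like (−0.40, 0.0336) and Fkbp5 in inhibitory neuron-like nuclei (0.66, 0.0193), all as log2 fold changes. By class, 4 of 10 members were called in astrocyte-like nuclei, where 7.78% of all genes tested were called, 2 of 10 in oligodendrocyte-like (6.4% of all genes), 2 of 8 in inhibitory neuron-like (2.62%), 1 of 6 in OPC-like (0.74%) and 1 of 9 in DG granule-like nuclei (2.65%). Without the block no member was called among 8 in CA1 pyramidal-like (4.95% of all genes), 7 in CA3 pyramidal-like (2.04%) or 7 in microglia-like nuclei (0.653%). Members absent from these counts had too few counts in the class to be tested. The filter needs enough counts in as many mice as the smallest group holds, of any state. Awake mice had at most 2.79 CPM (Hif3a, inhibitory neuron-like), 28.2 CPM (Hif3a, OPC-like) and 12.1 CPM (Cdkn1a, oligodendrocyte-like). Only anesthetized mice took these genes over the filter there, so their tests existed through the groups where the genes were high.

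**Figure D2:**
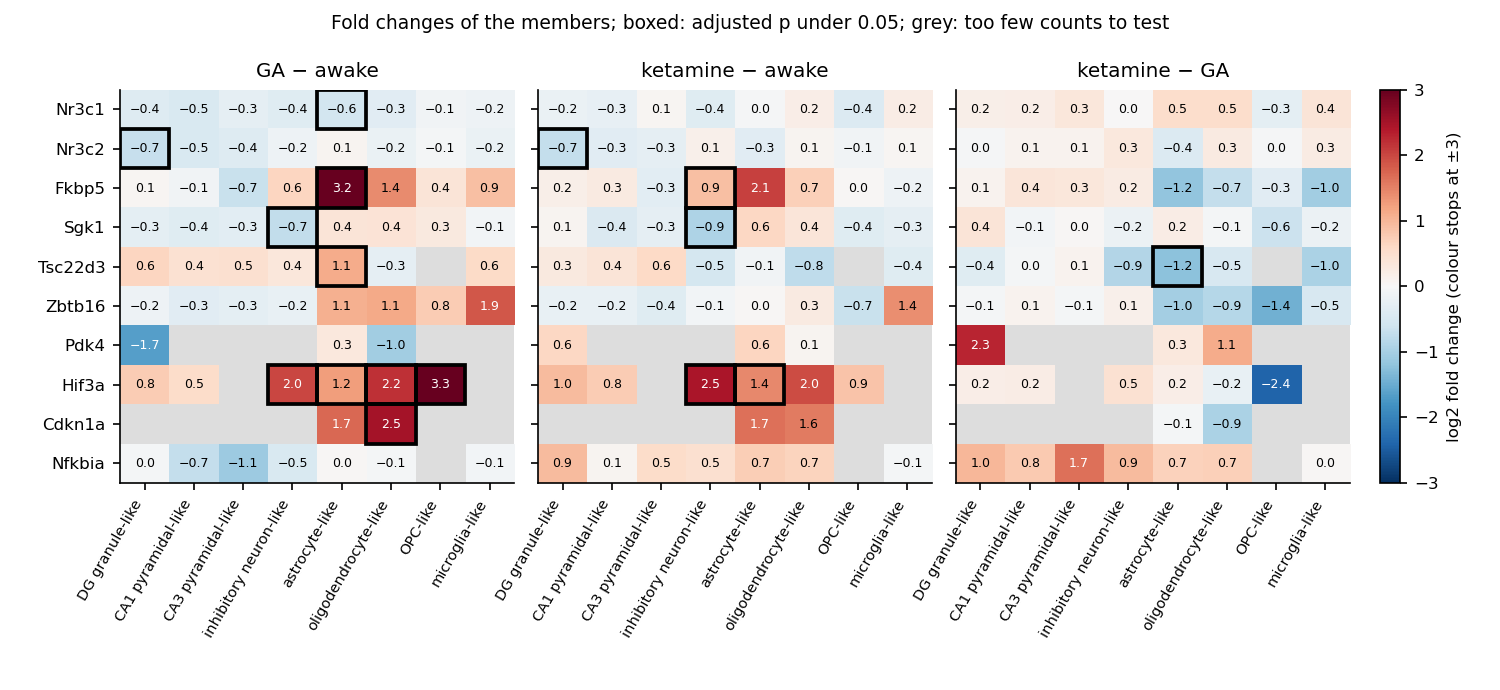
Fitted log2 fold changes (colour and number) of the 10 members (rows) in the 8 tested classes (columns) for GA minus awake (left), ketamine minus awake (middle) and ketamine minus GA (right), with an adjusted p under 0.05 boxed and grey for too few counts. Boxes number 10, 5 and 1 in the panels, and Hif3a was positive against awake in 6 of 6 tested classes under both anesthetics. In inhibitory neuron-like and OPC-like nuclei Hif3a passed the gene filter through anesthetized mice only. In the untested CA3 pyramidal-like nuclei 4 of 7 GA mice and 0 of 4 ketamine mice lay above the awake range.

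Among the receptors, Nr3c1 (chromosome 18) had a negative log2 fold change under isoflurane in 8 of 8 classes, but the test was passed in 1. In astrocyte-like nuclei Nr3c1 was at 122, 212, 158, 204, 232 and 204 CPM in the WT-Awake mice and at 123, 191 and 175 CPM in the fAD-Awake mice, CPM here and below being scaled by TMM within the class. It was at 102, 113 and 113 CPM in WT-GA and at 108, 161, 134 and 113 CPM in fAD-GA mice. Thus 5 of 7 GA mice lay below the lowest awake mouse. The log2 fold change of Nr3c1 was −0.56 (SE 0.14, adjusted p = 0.0167), and without mouse 10 it was −0.49 (adjusted p = 0.0659). In CA1 pyramidal-like nuclei it was −0.45 (SE 0.18, adjusted p = 0.180) and did not pass without the block for number runs.

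Nr3c2, which sets the response to basal hormone, was at 841 to 1351 CPM in DG granule-like nuclei of the 9 awake mice. In GA mice Nr3c2 was at 439, 697 and 660 CPM in WT and 393, 1164, 670 and 748 CPM in fAD, so that 6 of 7 lay below the awake range and mouse 11 (1164 CPM) within it. Its log2 fold change was −0.69 (SE 0.18, adjusted p = 0.0446). This call was close to the threshold and was lost without any of mice 2, 3, 10, 12 to 18, 20 and 25 to 29 in turn, with log2 fold changes of −0.75 to −0.60 and adjusted p from 0.0556 to 0.133. CA1 pyramidal-like nuclei gave −0.45 for Nr3c2 (SE 0.19, adjusted p = 0.196), which did not pass without that block. The summed markers of DG granule neurons were themselves lower in the DG granule-like class under GA (1669 to 2221 CPM) than in awake mice (2299 to 2652 CPM), and their part in the receptor result was not tested. Of these markers, Dock10 averaged 909 CPM there over all mice but was higher in oligodendrocyte-like nuclei (2491 CPM).

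Fkbp5 gave the largest of the astrocyte-like fold changes. It was at 29.7, 16.5, 15.3, 44.2, 7.65 and 32.7 CPM in WT-Awake and at 37.4, 27.7 and 13.3 CPM in fAD-Awake mice. Under isoflurane Fkbp5 was at 28.7, 429 and 168 CPM in WT-GA and at 279, 59.0, 387 and 407 CPM in fAD-GA mice. All GA mice except mouse 3 lay above the highest awake mouse, and 5 of them at 168 CPM or more. The log2 fold change was 3.23 (SE 0.56, adjusted p = 0.0022), and it stayed between 2.69 and 3.49 whichever mouse was left out, with an adjusted p of at most 0.012. Relative to the microglia-like class of the same mouse, where Fkbp5 is high, astrocyte-like Fkbp5 was at a median of 4.29% in awake and 20.1% in GA mice. The summed microglial markers were at 1.67% and 1.73%, and the part of microglial transcripts in the result was not tested. In CA3 pyramidal-like nuclei Fkbp5 was instead at 42.8 to 88.4 CPM in awake and 16.5 to 70.3 CPM in GA mice, 3 of 7 below the awake range. Its log2 fold change there of −0.66 (SE 0.21, adjusted p = 0.115) did not pass, but it did with no gene filter (−0.67, adjusted p = 0.00529) and without mouse 16 (−0.87, adjusted p = 0.0325).

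Hif3a and Tsc22d3 in astrocyte-like nuclei were also higher in most GA mice. Hif3a was at 199, 197, 154, 253, 158 and 181 CPM in WT-Awake, 189, 144 and 229 CPM in fAD-Awake, 272, 528 and 477 CPM in WT-GA and 499, 220, 516 and 648 CPM in fAD-GA mice. Hif3a rose by 1.25 on the log2 scale (SE 0.19, adjusted p = 0.000412), and 6 of 7 GA mice lay above the awake range. Tsc22d3, which encodes an anti-inflammatory effector, was at 89.7 to 248 CPM in WT-Awake, 122 to 298 CPM in fAD-Awake, 281, 477 and 449 CPM in WT-GA and 551, 229, 567.9 and 395 CPM in fAD-GA mice. Its log2 fold change was 1.11 (SE 0.24, adjusted p = 0.00813), and 5 of 7 GA mice lay above the awake range. Both calls held without any single mouse. Zbtb16 ran from 76.5 to 427 CPM in awake mice, and was at 143, 663 and 544 CPM in WT-GA and 483, 224, 684 and 666 CPM in fAD-GA mice. Its log2 fold change of 1.06 did not pass (adjusted p = 0.142), but without mice 1 to 4 it was 1.74 (adjusted p = 0.0226).

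**Figure D3:**
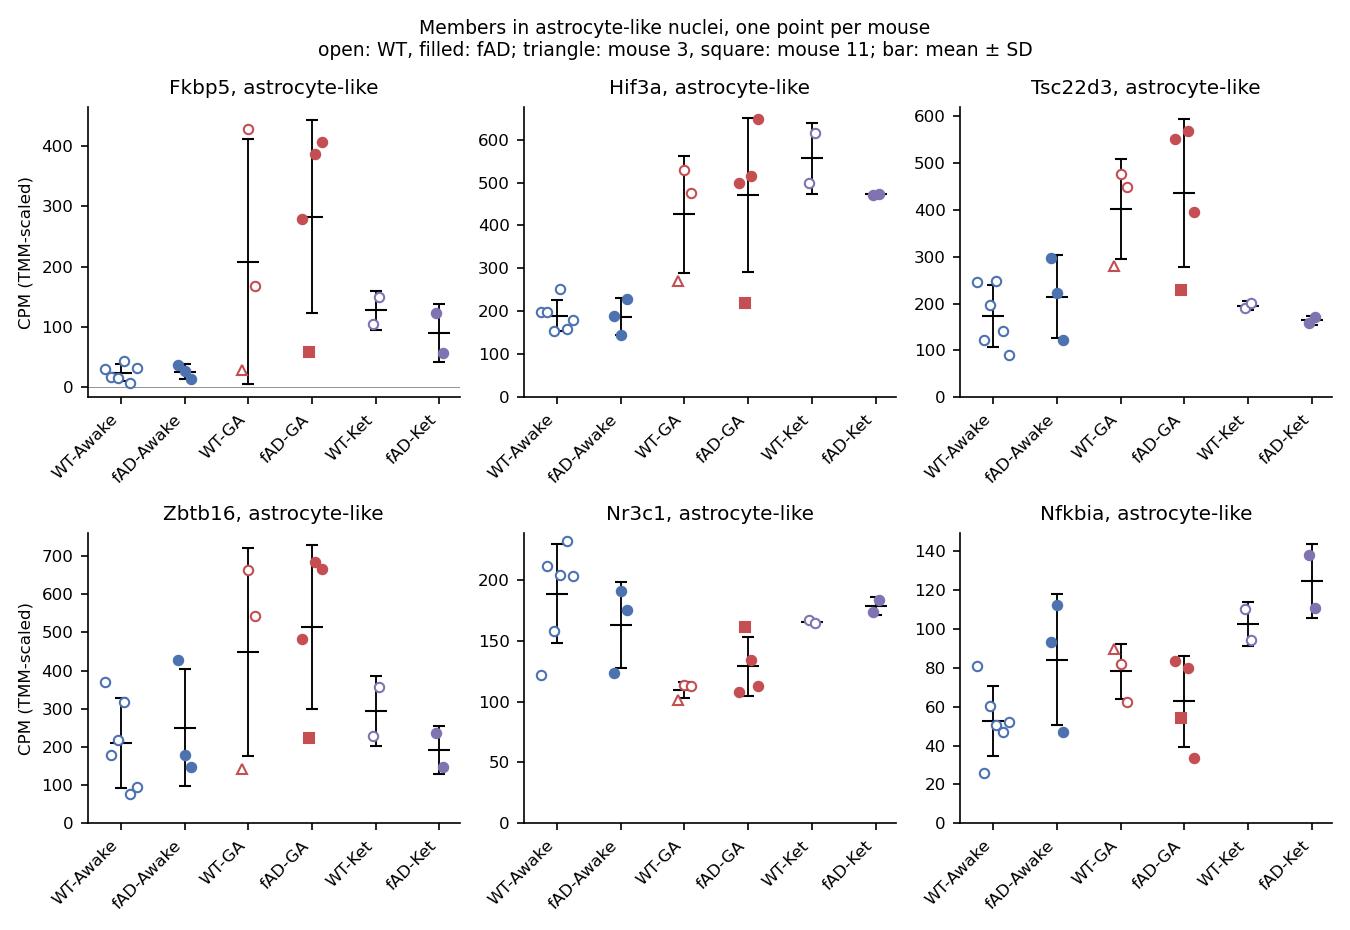
CPM (TMM-scaled, y axes) of 6 members in astrocyte-like nuclei for the 6 groups (x axis), with open points for WT and filled points for fAD mice, a triangle for mouse 3, a square for mouse 11 and bars for the mean ± SD. For Fkbp5, 5 of 7 GA mice lie at 168 to 429 CPM and all 9 awake mice at 7.65 to 44.2 CPM, while mice 3 (28.7 CPM) and 11 (59.0 CPM) lie in or near the awake range.

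The isoflurane response was uneven between mice, and the same mice were low for several genes. Mouse 3 (WT-GA) and mouse 11 (fAD-GA) had the lowest GA values of Fkbp5, Hif3a, Tsc22d3 and Zbtb16 in astrocyte-like nuclei, and of Hif3a in OPC-like and oligodendrocyte-like nuclei. For Fkbp5 the remaining GA mice reached 310 to 401 CPM in oligodendrocyte-like nuclei and 1947 to 2257 CPM in microglia-like nuclei, against 41.6 and 426 CPM in mouse 3 and 95.6 and 291 CPM in mouse 11. Mouse 11 had only 24 microglia-like nuclei, with 4 Fkbp5 UMIs. Arc, an activity-induced gene chosen after its values were seen, was at 3.39 CPM in mouse 3 and 4.22 CPM in mouse 11 in CA1 pyramidal-like nuclei, within the GA range of 1.89 to 6.59 CPM and below the awake range of 8.13 to 39.1 CPM. Fos, another activity-induced gene chosen after its values were seen, was instead at 3.11 and 3.51 CPM in mice 3 and 11 there, within the awake range (1.63 to 16.2 CPM) and above the other 5 GA mice (0.270 to 0.732 CPM). In DG granule-like nuclei Fos was at 4.05 and 2.17 CPM in these mice, against 0.197 to 1.13 CPM in the other 5. Npas4, also activity-induced, was at 3.95 and 2.81 CPM in mice 3 and 11 in CA1 pyramidal-like nuclei, within the GA range (2.81 to 6.22 CPM) and below the awake range (9.68 to 17.4 CPM). In DG granule-like nuclei Npas4 was at 0.253 and 0.435 CPM in these mice, also below the awake range (0.959 to 3.03 CPM). Arc there was at 1.01 and 1.09 CPM, where GA (0.590 to 1.68 CPM) and awake mice (0 to 7.21 CPM) overlapped. All 7 GA mice were kept in every test.

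Hif3a rose beyond astrocyte-like nuclei. In oligodendrocyte-like nuclei it was at 8.35 to 58.5 CPM in awake mice, 31.7, 152 and 175 CPM in WT-GA and 219, 16.9, 114 and 171 CPM in fAD-GA mice, a log2 fold change of 2.18 (SE 0.51, adjusted p = 0.0153). Without mouse 17 the Hif3a change was 2.03 (adjusted p = 0.0543). In OPC-like nuclei Hif3a was at 0 to 28.2 CPM in awake mice, 18.7, 134 and 170 CPM in WT-GA and 320, 9.64, 183 and 215 CPM in fAD-GA mice. Hif3a passed the gene filter in OPC-like nuclei through anesthetized mice only. The change there was 3.25 (SE 0.61, adjusted p = 0.0171), and without mouse 10, 17 or 18 it was 3.00 to 3.19 (adjusted p = 0.0523 to 0.0708). Because Hif3a is highest in astrocyte-like nuclei, its level was set against that class in the same mouse. OPC-like Hif3a was at a median of 5.99% of the astrocyte-like level in awake and 30.6% in GA mice, while summed astrocyte markers were at 11.0% and 10.6%. For oligodendrocyte-like nuclei the Hif3a medians were 11.4% and 24.9%, and those of the astrocyte markers 4.24% and 3.4%. The summed OPC markers of the OPC-like class were at 8823 to 11264 CPM in awake and 6675 to 9238 CPM in GA mice, and inhibitory neuron markers in it at medians of 2904 and 4035 CPM. That inhibitory sum was mostly Erbb4, which averaged 3259 CPM in OPC-like nuclei over all mice, against 66.0 CPM for Gad1. Oligodendrocyte markers of their own class were at 15001 to 19006 CPM in awake and 12069 to 18339.9 CPM in GA mice, and the part of these markers in the Hif3a results, and in that of Cdkn1a below, was not tested.

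In inhibitory neuron-like nuclei Hif3a rested on few transcripts, and it passed the gene filter there through anesthetized mice only. It had 1 to 3 UMIs in each awake mouse (0.748 to 2.79 CPM) and 2 to 10 UMIs in each GA mouse (1.49 to 10.8 CPM). The log2 fold change of Hif3a was 2.00 (SE 0.49, adjusted p = 0.0312), and it was 1.91 to 2.13 (adjusted p = 0.0510 to 0.0940) without mouse 2, 10, 13, 17 or 20. Its median was 0.640% of the astrocyte-like level in awake and 1.16% in GA mice, against 0.654% and 0.876% for the summed astrocyte markers. The part of these astrocyte transcripts in the result was not tested.

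Sgk1 in inhibitory neuron-like nuclei separated the states completely. It was at 120, 139, 138, 138, 140 and 130 CPM in WT-Awake and at 144, 163 and 110 CPM in fAD-Awake mice. Sgk1 was at 60.3, 93.1 and 96.7 CPM in WT-GA and at 62.1, 88.5, 96.0 and 80.5 CPM in fAD-GA mice, all 7 below the awake range, mice 3 and 11 included. The log2 fold change was −0.73 (SE 0.12, adjusted p = 0.00239) and held without any single mouse (adjusted p at most 0.0108). The summed inhibitory markers of this class were at 6840 to 8752 CPM in awake and 5551 to 7336 CPM in GA mice, and their part in the result was not tested. Of these markers, Erbb4 alone averaged 5970 CPM in this class over all mice. In the other 7 classes the Sgk1 test was not passed under isoflurane without the block for number runs.

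Cdkn1a and the remaining members were low or variable. In oligodendrocyte-like nuclei Cdkn1a was at 0 CPM in 4 of 9 awake mice and reached 12.1 CPM in mouse 1. It was at 2.97, 29.0 and 35.5 CPM in WT-GA and 32.1, 8.43, 17.9 and 10.0 CPM in fAD-GA mice, from 3 to 35 UMIs each. Cdkn1a passed the gene filter in these nuclei through anesthetized mice only. The log2 fold change of Cdkn1a was 2.5 (SE 0.64, adjusted p = 0.0204), and without mouse 4, 17 or 18 it was 2.18 to 2.24 (adjusted p = 0.0586 to 0.0698). It was larger without mouse 1 (3.30), without mouse 2 (3.24) and without mice 1 to 4 (4.03), and Hif3a of these nuclei was at 2.84 without mice 1 to 4. Fkbp5 in oligodendrocyte-like nuclei, at 41.7 to 170 CPM in awake mice, had a log2 fold change of 1.42 that did not pass (adjusted p = 0.0850), and that of 2.07 without mice 1 to 4 did (adjusted p = 0.0172). Zbtb16 in microglia-like nuclei, at 0 to 147 CPM in awake mice and 249 to 472 CPM in 5 GA mice, had a log2 fold change of 1.87 (adjusted p = 0.298), and 3.70 without mice 1 to 4 (adjusted p = 0.00166). Nfkbia had negative values in 6 of 7 tested classes, and Pdk4 could be tested in 3 classes, none passing for either.

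**Figure D4:**
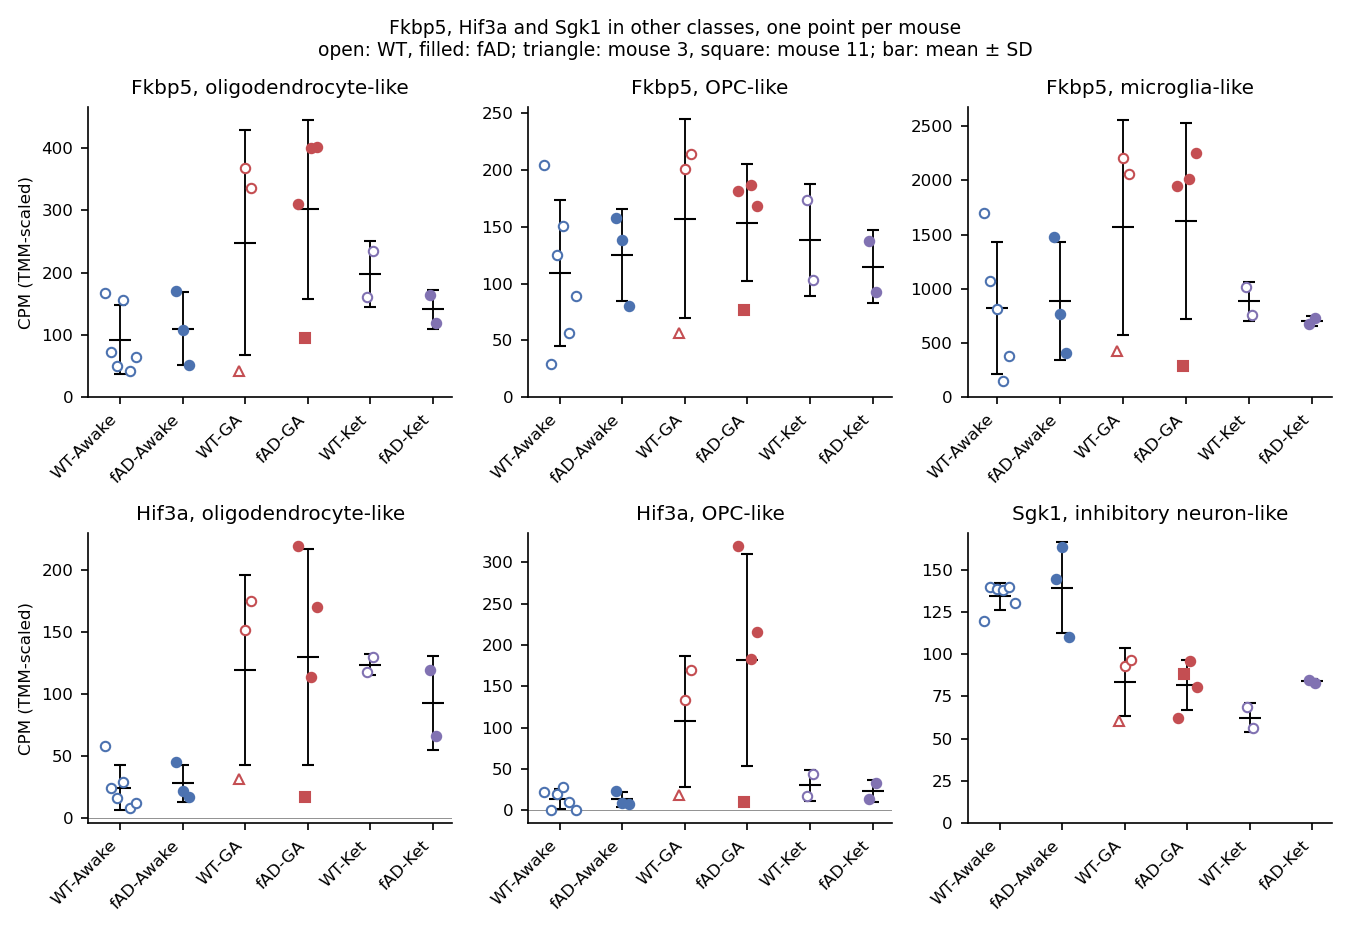
CPM (TMM-scaled, y axes) of Fkbp5 in oligodendrocyte-like, OPC-like and microglia-like nuclei (top), Hif3a in oligodendrocyte-like and OPC-like nuclei and Sgk1 in inhibitory neuron-like nuclei (bottom) for the 6 groups (x axis), with open points for WT and filled for fAD mice, a triangle for mouse 3, a square for mouse 11 and bars for the mean ± SD. Hif3a reached 134 to 320 CPM in 5 GA mice in OPC-like nuclei against at most 28.2 CPM in awake mice, and Sgk1 lay at 110 CPM or more in awake mice and at 96.7 CPM or less in all anesthetized mice.

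The second comparison set ketamine with xylazine against the same awake mice, so the fold changes of both anesthetics share their reference. Hif3a rose in astrocyte-like and inhibitory neuron-like nuclei, Fkbp5 rose in inhibitory neuron-like nuclei, and Sgk1 in inhibitory neuron-like and Nr3c2 in DG granule-like nuclei fell. Of 65 tests, 5 passed in edgeR (3 higher, 2 lower), 14 had an unadjusted p under 0.05, and DESeq2 called 9. Among all genes the share with such a p in edgeR ran from 518 of 3829 (microglia-like) to 4531 of 15072 (DG granule-like). The count of 14 is to be read against these shares. With 4 ketamine mice the count moved to 2 without mouse 25, 27 or 28 and to 8 without mouse 3, and a block for runs of consecutive mouse numbers left 0, with 1 awake mouse in the ketamine run. By class, 3 of 8 members were called in inhibitory neuron-like nuclei, where 4.89% of all genes were called. Of these 3, Hif3a passed the gene filter there through anesthetized mice only, so its test existed through the groups where it was high. Another 1 of 10 was called in astrocyte-like (7.89%) and 1 of 9 in DG granule-like nuclei (12.3%). No member was called in CA1 pyramidal-like (9.54% of all genes), CA3 pyramidal-like (3.75%), oligodendrocyte-like (3.85%), OPC-like (0.919%) or microglia-like nuclei (0.731%).

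In astrocyte-like nuclei Hif3a was at 498 and 614 CPM in WT-Ket and 472 and 473 CPM in fAD-Ket mice, all 4 above the awake range. Its log2 fold change was 1.44 (SE 0.22, adjusted p = 0.000485) beside 1.25 under isoflurane, and it held without any single mouse. Fkbp5 was at 104 and 150 CPM in WT-Ket and 123 and 56.4 CPM in fAD-Ket mice, also all above the awake range. The Fkbp5 value of 2.05 (SE 0.62) did not pass (adjusted p = 0.0534), beside 3.23 under isoflurane. Tsc22d3, at 190 and 202 CPM in WT-Ket and 158 and 171 CPM in fAD-Ket mice, lay within the awake range in all 4. Neuronal reference transcripts (Syt1, Snap25, Rbfox3 and Meg3 summed) in the astrocyte-like class were at 226 to 328 CPM in ketamine, 374 to 934 CPM in awake and 500 to 915 CPM in GA mice, and their part in these results was not tested.

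In inhibitory neuron-like nuclei Sgk1 was at 68.6 and 56.3 CPM in WT-Ket and 84.9 and 82.9 CPM in fAD-Ket mice, all 4 below the awake range, with a log2 fold change of −0.92 (SE 0.15, adjusted p = 0.00299) beside −0.73 under isoflurane. Hif3a, with 3 to 10 UMIs per ketamine mouse (5.72 to 9.16 CPM), gave 2.45 (SE 0.55, adjusted p = 0.0181) beside 2.00, and without mouse 25, 27 or 28 it was 2.25 to 2.60 (adjusted p = 0.0599 to 0.104). As described above, Hif3a passed the gene filter in this class through anesthetized mice only. Fkbp5 was at 61.0 and 77.2 CPM in WT-Ket and 78.9 and 56.9 CPM in fAD-Ket against 25.1 to 61.3 CPM in awake mice. It gave 0.89 (SE 0.22, adjusted p = 0.0286) beside 0.65 under isoflurane (adjusted p = 0.0764), and without mouse 2, 25, 27 or 28 it was 0.76 to 0.98 (adjusted p = 0.0760 to 0.157). This Fkbp5 call was also lost with nuclei gated singly, doublets kept, the block for number runs, or without mice 1 to 4. In DG granule-like nuclei Nr3c2 was at 624 and 678 CPM in WT-Ket and 623 and 687 CPM in fAD-Ket mice, below all awake mice, at −0.72 (SE 0.21, adjusted p = 0.0348) beside −0.69. Without mouse 10, 25, 26, 27 or 28 the Nr3c2 value was −0.76 to −0.65 (adjusted p = 0.0674 to 0.164). The summed markers of both classes were also lower on the whole under ketamine, at 5084 to 7075 CPM against 6840 to 8752 CPM in awake mice for inhibitory neurons, and at 1962 to 2189 CPM against 2299 to 2652 CPM for DG granule neurons. Their part in these results was not tested.

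The difference between the anesthetics was tested directly. Of 65 tests, 1 passed, 12 had an unadjusted p under 0.05, and DESeq2 called 1. Among all genes the share with such an unadjusted p ran from 549 of 3829 (microglia-like) to 3528 of 12605 (astrocyte-like), against which the 12 is to be read. Tsc22d3 in astrocyte-like nuclei was lower under ketamine (158 to 202 CPM) than under isoflurane (229 to 567.9 CPM), without overlap, at a log2 fold change of −1.22 (SE 0.31, adjusted p = 0.0211). Without mouse 25, 26, 27 or 28 it was −1.25 to −1.19 (adjusted p = 0.0691 to 0.102). A block for the number runs gave −0.02 for Tsc22d3, and with no gene filter the adjusted p was 0.0638. The count of calls was 2 without mouse 1, 2, 10 or 19, and 3 without mouse 11. Of all genes, 9.48% were called in this class, 4.41% in DG granule-like, 6.62% in CA1 pyramidal-like, 1.82% in CA3 pyramidal-like, 2.44% in inhibitory neuron-like, 5.29% in oligodendrocyte-like, 0.96% in OPC-like and 0.862% in microglia-like nuclei. Nr3c1 in astrocyte-like nuclei, at 165 to 184 CPM under ketamine and 102 to 161 CPM under isoflurane, gave 0.54 (SE 0.17, adjusted p = 0.0508) and did not pass. Hif3a in OPC-like nuclei, at 13.7 to 43.5 CPM under ketamine, gave −2.39 (SE 0.74, adjusted p = 0.148) and did not pass either. Fkbp5 in astrocyte-like nuclei gave −1.18 (SE 0.64, adjusted p = 0.243).

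Genotype was the third comparison, all states averaged. No member passed in edgeR, 1 of 65 tests had an unadjusted p under 0.05 (Sgk1 in microglia-like nuclei, log2 fold change 0.80, unadjusted p = 0.0344), and DESeq2 called 0, with 0 at an unadjusted p under 0.05. Among all genes 0% were called in each of the 8 classes. The share of all genes with an unadjusted p under 0.05 ran from 159 of 10323 (oligodendrocyte-like) to 382 of 11456 (CA3 pyramidal-like). Astrocyte-like Fkbp5 was at 24.3 ± 13.5 CPM in WT-Awake (SD, n = 6) and 26.1 ± 12.1 CPM in fAD-Awake (SD, n = 3), and at 208 ± 203 CPM in WT-GA (SD, n = 3) and 283 ± 160 CPM in fAD-GA mice (SD, n = 4). The fAD minus WT value of Fkbp5 was 0.01 (SE 0.48). A difference smaller than this error could not be detected. A larger difference could also be missed, since passing the adjusted threshold takes several times the SE. Whether the isoflurane response differed by genotype was tested as an interaction, which no member passed in edgeR or DESeq2, and 2 of 65 tests had an unadjusted p under 0.05 with either tool. Of all genes, 0% were called for the interaction in each of the 8 classes. Their share with such an unadjusted p ran from 63 of 3829 (microglia-like) to 433 of 12605 (astrocyte-like). The 2 member tests in edgeR were Nfkbia in CA1 pyramidal-like nuclei (−1.42, SE 0.60, adjusted p = 0.937) and in astrocyte-like nuclei (−0.97, SE 0.44, adjusted p = 0.952). The Fkbp5 interaction in astrocyte-like nuclei was 0.34 with an SE of 1.07. Since 4 of 9 mice labelled fAD were within the WT range of Prnp, these comparisons concern the labels.

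Other genes of the pathway were read from 6 lists, each gene being counted in each class where it was tested and read against the shares of all genes given above for that class and comparison. The lists were chosen with earlier results of these data known, so their counts are a description and no independent test. Of 25 further corticosteroid-induced genes (114 tests), 10 rose and 1 fell under isoflurane, of which 6 of 21 rose in astrocyte-like and 4 of 17 in oligodendrocyte-like nuclei, with median log2 fold changes of 0.29 and 0.71. In astrocyte-like nuclei Arrdc2, an arrestin domain gene, rose by 2.39 on the log2 scale (SE 0.35, adjusted p = 0.000247) and Klf9, a Krüppel-like transcription factor, by 0.73 (SE 0.12, adjusted p = 0.000585). Plin4, a lipid droplet protein, rose by 2.62 in oligodendrocyte-like nuclei (SE 0.42, adjusted p = 0.000885). Under ketamine 9 rose and 4 fell. By class, 4 of 21 rose in astrocyte-like (7.89% of all genes called in either direction), 3 of 17 in oligodendrocyte-like (3.85%) and 1 of 14 in inhibitory neuron-like nuclei (4.89%), while 1 of 17 rose and 2 fell in CA1 pyramidal-like (9.54%) and 2 of 20 fell in DG granule-like nuclei (12.3%). They included Klf9 (1.08) and the phagocytic receptor Mertk (0.65) in astrocyte-like nuclei and the repressor Bcl6 (−1.55) in CA1 pyramidal-like nuclei. Between the anesthetics 1 was higher and 6 were lower under ketamine, namely 1 of 17 higher and 1 lower in CA1 pyramidal-like, 2 of 20 lower in DG granule-like, 1 of 21 in astrocyte-like and 2 of 17 in oligodendrocyte-like nuclei. Arrdc2 in astrocyte-like nuclei (−1.67) and Fam107a in oligodendrocyte-like nuclei (−2.53) were lower, and Klf9 in CA1 pyramidal-like nuclei (0.44) was higher.

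Of 20 receptor chaperones, cofactors and steroid-metabolising enzymes (131 tests), 0 rose and 3 fell under isoflurane, and 1 rose and 9 fell under ketamine. The isoflurane falls were 1 of 20 in DG granule-like (2.65% of all genes called), 1 of 18 in CA1 pyramidal-like (4.95%) and 1 of 16 in oligodendrocyte-like nuclei (6.4%). The ketamine falls were 4 of 18 in CA1 pyramidal-like (9.54% of all genes called), 3 of 20 in DG granule-like (12.3%), 1 of 18 in CA3 pyramidal-like (3.75%) and 1 of 17 in inhibitory neuron-like nuclei (4.89%), and the rise was 1 of 17 in astrocyte-like nuclei (7.89%). Ptges3, the p23 co-chaperone, fell in oligodendrocyte-like nuclei under isoflurane (−0.65), and the coactivator Ncoa3 fell in CA1 pyramidal-like nuclei under isoflurane (−0.37) and ketamine (−0.63). Under ketamine Stip1, a Hsp70-Hsp90 adaptor, also fell in CA1 (−0.995) and the acetyltransferase gene Ep300 in CA3 pyramidal-like nuclei (−0.81). Ketamine against isoflurane called 3 higher and 4 lower. By class, 1 of 18 was higher and 2 lower in CA1 pyramidal-like (6.62% of all genes called), and 2 of 17 higher in astrocyte-like nuclei (9.48%). Another 1 of 20 was lower in DG granule-like (4.41%) and 1 of 16 in oligodendrocyte-like nuclei (5.29%). Those lower in CA1 pyramidal-like nuclei included Hsd11b1, which regenerates active corticosterone (−1.60), and Fkbp4 (−1.48).

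The remaining 4 lists hold relatives of Nfkbia, Cdkn1a, Pdk4 and Hif3a, and none had more than 2 calls in a class in any comparison, too few to set against the shares of all genes. The 10 NF-kB genes (33 tests) gave 0 calls under isoflurane and 1 under ketamine, Rel in DG granule-like nuclei (0.98), and Rel was higher under ketamine than isoflurane in CA1 pyramidal-like nuclei (0.82). The 10 p53 genes (54 tests) gave 1 under isoflurane, Trp53inp1 in astrocyte-like nuclei (1.03), and 3 under ketamine, including Zmat3 in CA1 pyramidal-like (−0.73) and Mdm2 in oligodendrocyte-like nuclei (0.65). Trp53inp1 was lower under ketamine than isoflurane (−0.81). The 10 FoxO and fasting genes (58 tests) gave 3 rises under isoflurane, Acot11 (2.94) and Foxo3 (0.64) in oligodendrocyte-like and Irs2 (0.69) in astrocyte-like nuclei. Under ketamine 2 of these tests rose, Txnip in astrocyte-like (1.31) and Foxo3 in CA1 pyramidal-like nuclei (0.63), and Irs2 in CA1 pyramidal-like nuclei fell (−1.62). Ketamine against isoflurane called 2 higher, with Txnip in OPC-like nuclei at 4.42, and 2 lower, Foxo3 in oligodendrocyte-like (−0.74) and Irs2 in CA1 pyramidal-like nuclei (−1.17). The 10 hypoxia-inducible genes (47 tests) gave 1 fall under isoflurane, Vegfa in OPC-like nuclei (−1.84), and 1 rise and 1 fall under ketamine, Vegfa in astrocyte-like (0.89) and Ldha in DG granule-like nuclei (−1.28). Ketamine against isoflurane called 3 higher and 1 lower in this list, Vegfa in astrocyte-like (1.10) and Hif1a in CA1 pyramidal-like nuclei (0.54) being higher and Slc2a1 in oligodendrocyte-like nuclei lower (−1.04). No list gene was called for genotype or its interaction with isoflurane.

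The awake mice varied among themselves in the same genes. Fkbp5 in oligodendrocyte-like nuclei ran from 41.7 to 170 CPM over the 9 awake mice, and 8 relations with it were computed on log2(CPM + 1), chosen after the values were seen. Hif3a of the same nuclei had r = 0.89 (exact permutation p = 0.000843, adjusted 0.00675, Spearman rho = 0.917, exact permutation p = 0.00131), and r = 0.79 without the 2 farthest mice (1 and 2). Zbtb16 had r = 0.89 (exact permutation p = 0.00335, adjusted 0.0134, rho = 0.767, exact permutation p = 0.0214) and r = 0.80 without them. These 2 genes share the nuclei, library and depth of the Fkbp5 value. The Fkbp5 values of other classes come from other nuclei of the same mouse but share its library. Astrocyte-like Fkbp5 had r = 0.85 (exact permutation p = 0.00602, adjusted 0.0161, rho = 0.817, exact permutation p = 0.0108) and r = 0.86 without them. Microglia-like Fkbp5, in 8 mice, had r = 0.76 (exact permutation p = 0.0315, adjusted 0.0630, rho = 0.714, exact permutation p = 0.0576) and r = 0.58 without the 2 farthest (2 and 19). For OPC-like Fkbp5 r was 0.65 (exact permutation p = 0.0544, adjusted 0.0726, rho = 0.767, exact permutation p = 0.0214) and 0.45 without mice 1 and 2. For Sgk1 and Tsc22d3 of the oligodendrocyte-like nuclei r was 0.70 (exact permutation p = 0.0405, adjusted 0.0648, rho = 0.650, exact permutation p = 0.0666) and 0.57 (exact permutation p = 0.0976, adjusted 0.112, rho = 0.717, exact permutation p = 0.0369), and 0.44 and 0.53 without mice 1 and 2. Total UMIs of the library had r = 0.33 (exact permutation p = 0.381, adjusted 0.381, rho = 0.017, exact permutation p = 0.982), and 0.31 without the same mice. No number run, as divided here, holds more than 3 awake mice, and that division was assumed. With the mean of each run taken out, over the 7 awake mice in 3 runs of at least 2 (an alternative added after the data were seen), r was 0.81 for Hif3a, 0.88 for Zbtb16, 0.96 for astrocyte-like Fkbp5, 0.32 for OPC-like Fkbp5, 0.37 for Sgk1, 0.83 for Tsc22d3 and 0.12 for total UMIs, and 0.47 over 6 mice for microglia-like Fkbp5. The unadjusted exact permutation p within runs was 0.0417 for astrocyte-like Fkbp5, the smallest that 24 orders can give, and 0.208 or more for the others. Microglia-like Fkbp5 had 8 orders, which cannot give a p under 0.125. Astrocyte-like Fkbp5 was 1 of 8 relations chosen after the values were seen, and its p was not adjusted. None of the relations was thus shown within runs.

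**Figure D5:**
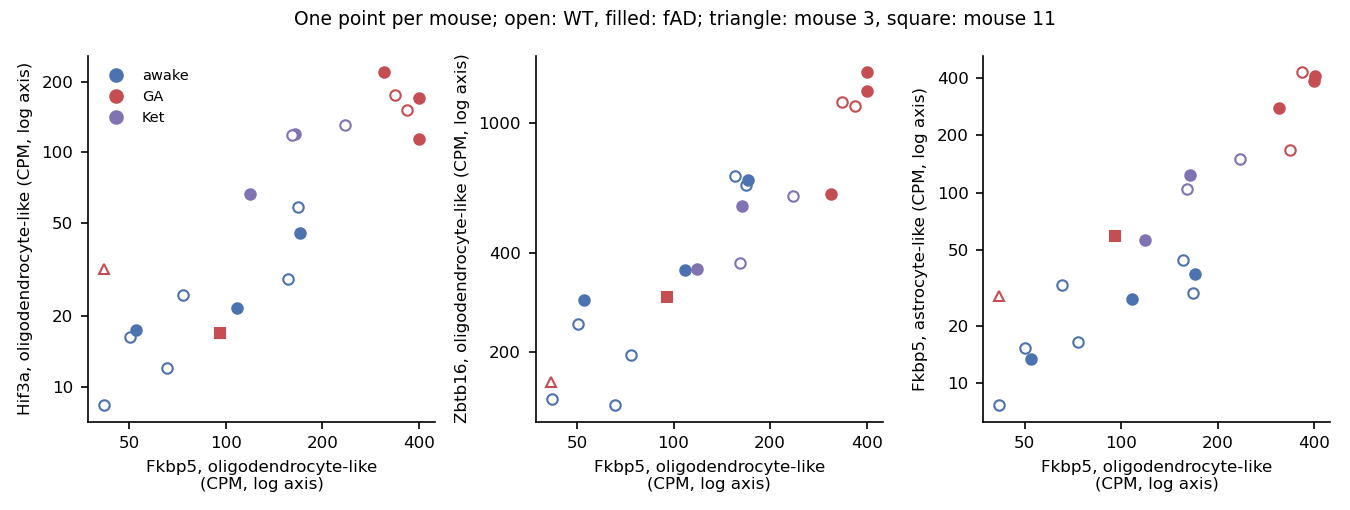
Fkbp5 in oligodendrocyte-like nuclei (x axis, CPM on a log scale) against Hif3a and Zbtb16 of the same nuclei and Fkbp5 of astrocyte-like nuclei (y axes, CPM on log scales), with a point per mouse, open for WT and filled for fAD, coloured by state, a triangle for mouse 3 and a square for mouse 11. Over the 9 awake mice r was 0.89, 0.89 and 0.85, and mice 3 and 11 lie in or near the range of the awake mice on each axis.

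Endothelial-like nuclei reached 20 per mouse in 10 mice only and were described without a test. Cdkn1a was at 1107 CPM in mouse 3 and 1956 CPM in mouse 4, and at 310 and 307 CPM in GA mice 11 and 20, against 0 to 305 CPM in 5 awake mice. Nfkbia was at 2817 and 2901 CPM in mice 3 and 4 and at 929 and 751 CPM in mice 11 and 20, against 198 to 1294 CPM in awake mice. Sgk1 was at 952 and 1317 CPM in mice 3 and 4 and at 338 and 324 CPM in mice 11 and 20, all 4 above the awake mice (0 to 165 CPM). Fkbp5 in these nuclei was instead at 19.4 CPM in mouse 3, from 1 UMI, and 447 CPM in mouse 4. Mouse 3, low for Fkbp5 in astrocyte-like nuclei, was thus among the highest for Cdkn1a, Nfkbia and Sgk1 in endothelial-like nuclei, and mice 3 and 4 belong to the 4 with the raised mitochondrial share, while mice 11 and 20 do not.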

How the data were processed

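Raw UMI counts per gene and nucleus were deposited for 20 mice. Per the study's methods and the submitters' processing notes, the authors ran Cell Ranger 5.0.0 on mm10 and kept intronic reads. Whether CellBender, named in the methods, had been applied to the deposited counts is not given in the sources used here, and the labels and methods differ on perfusion and kit version. The group sizes in the design text also differ from the labels, which were followed.

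Nuclei with at least 200 genes were kept, 10844 (6.74%) were marked as doublets from simulated pairs and dropped, and the rest were clustered (2000 variable genes without the members and pathway genes, 30 principal components, Leiden resolution 1, leidenalg 0.10.2), giving 52 clusters named from fixed markers. A rule leaving clusters with markers of 2 classes unnamed was added after the clusters were seen. Counts were summed per mouse and class (at least 20 nuclei) and fitted in edgeR 4.0.16 (quasi-likelihood, TMM, filterByExpr, 6 groups, no covariates) with contrasts averaged over genotypes, and p-values were adjusted by Benjamini-Hochberg over all genes of a class (threshold 0.05). The SE given with an edgeR fold change was derived from the test, as the absolute log2 fold change divided by the square root of the test's F statistic. It is thus no measure of spread independent of the p-value. The fit was checked on simulated data. Among the tested classes, low counts limit precision most in microglia-like and OPC-like sums (from 14228 and 73082 UMIs per mouse), and counting error only is covered by UMI limits. DESeq2 1.42.0 was among 11 alternatives, besides leaving out each mouse in turn. The methods say that tissue went through in batches of 4 mice, 1 of each awake and isoflurane group. The labels give no mouse's batch, so runs of mouse numbers were used as a block only as an alternative. These were mice 1 to 4, 10 to 13, 14 to 17, 18 to 20 and 25 to 29. Mice 10 to 20 are numbered without a gap, so their division into runs was assumed, and mice 10 to 13 include no WT-GA mouse. Each mouse counts as 1 replicate. Genes named were the 10 members, per list and contrast the 3 called genes of smallest adjusted p, and the 3 genes most like each of Nr3c1, Nr3c2, Fkbp5 and Sgk1, apart from a few that are not reported here. The members and lists were chosen with earlier results of these data known.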

Additional observations from a re-analysis of the deposited data

Results flagged for a closer look

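Within-group outliers were looked for with Dixon's ratio in 22 groups of 4 or more mice for members named as called, and 2 stood out, where chance flags about 1 in 20. Hif3a in inhibitory neuron-like nuclei was at 2.79 CPM in WT-Awake mouse 14, from 3 UMIs, against 0.786 to 1.39 CPM in the other 5 mice of the group. Cdkn1a in oligodendrocyte-like nuclei was at 12.1 CPM in WT-Awake mouse 1, from 13 UMIs, against 0 to 2.96 CPM in the others.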

How the results depend on the processing

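Under 11 alternatives (another test or scaling, no gene filter, other clusters, nuclei gated singly, doublets kept, a stricter nucleus filter, equal nuclei per mouse, a block for number runs, without mice 1 to 4, only the states compared), no called fold change reversed where it could be tested. Hif3a in inhibitory neuron-like nuclei, under both anesthetics, had a test in 6 of 11 alternatives and 18 of 20 omissions of a mouse, and Cdkn1a in oligodendrocyte-like nuclei in 10 of 11 alternatives. The GA count of 10 was 7 to 15, and 5 to 12 without single mice. The ketamine count of 5 was 9 with DESeq2 and 0 with the block, 5 to 7 otherwise, and 2 to 8 without single mice. The count of 1 between the anesthetics was 0 with no gene filter, 2 at Leiden resolution 2, 0 with the block, 2 without mice 1 to 4, and 0 to 3 without single mice, and the causes were not tested. The counts for genotype and interaction were 0 under every alternative. Across these alternatives 148 recomputed fold changes kept their call and 17 lost it, and without single mice 271 kept it and 45 lost it. Fkbp5, Hif3a and Tsc22d3 in astrocyte-like and Sgk1 in inhibitory neuron-like nuclei kept their isoflurane call under 11 of 11 alternatives and 20 of 20 omissions. Isoflurane calls were lost for Nr3c2 in DG granule-like nuclei with no gene filter, singly gated nuclei, without mice 1 to 4 and with only the states compared (adjusted p = 0.0567 to 0.115), for Hif3a in oligodendrocyte-like nuclei with the block (0.0562), and for Cdkn1a there with no gene filter and gated nuclei (0.0571 and 0.0506). Fkbp5 in inhibitory neuron-like nuclei under ketamine was also lost with gated nuclei (0.49), doublets kept (0.76) and without mice 1 to 4 (0.76, log2 fold changes). The block left the 5 ketamine values at −0.95 (Nr3c2, DG granule-like), 0.18 (Fkbp5), −0.91 (Sgk1) and 2.75 (Hif3a, all inhibitory neuron-like) and 1.54 (Hif3a, astrocyte-like). Mean levels moved by more than 1 SD in 6 cases, all with nuclei gated singly, the others being Sgk1 (181 CPM) and Zbtb16 (159 CPM) in CA3 pyramidal-like nuclei. Members under the gene filter and low UMI counts of Hif3a and Cdkn1a outside glia and endothelium limit what could be detected. The labels give no replicate numbers that pair mice across groups, and the block for number runs is the only blocked fit made.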
